A study of Mus musculus with 8 samples.

Results

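The 35 genes described here are expressed by macrophages, the phagocytes that enter embryonic organs from the yolk sac and blood, and they were followed in cultures of mouse limb bud cells. Members were found by the gene symbol of each array probe in the platform annotation, current or older. Of the 35 genes, 32 had at least 1 named probe, out of 16590 named genes on the array, and these 32 genes had 48 probes. Csf1r, Cd68 and Mpeg1 had no named probe and were not analysed here. Gene expression had been measured on 8 Illumina bead arrays with RNA from primary cells of the forelimb and hindlimb buds at embryonic day 11.5.

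All cells came from embryos of 1 floxed strain, labelled 129XB6-Sox4fl/fl11fl/fl, so every group, untreated cells included, had Sox4 and Sox11 genes flanked in part by Cre target sites (floxed). The cells were cultured for 6 h before treatment. They were then left untreated (genotype labelled "Wild type", n = 2 arrays), treated for 24 h with an adenovirus expressing LacZ, a bacterial enzyme used as a control cargo (labelled AdeLacZ, here AdLacZ, n = 3), or treated for 24 h with an adenovirus expressing Cre recombinase (labelled AdeCre, here AdCre, n = 3). The labels give no time for untreated cells, so time in culture and virus cannot be told apart. No group received AdCre without floxed alleles, so Cre itself and the deletion cannot be told apart either. Nothing states that replicates were separate cultures or litters, so the tests are set against array-to-array spread, which may be technical.

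Macrophages of the embryo depend on the receptor Csf1r and on the transcription factor PU.1, encoded by Spi1. They sense immune complexes through Fc receptors with the small adaptor chain Fcer1g, and have other receptors with the adaptor Tyrobp, both bearing tyrosine motifs. They secrete lysozyme and complement C1q, and in the limb bud they are known for clearing dying cells, for example between the digits. In bulk RNA, fewer cells of a type and less RNA per cell cannot be told apart, and this holds for every result below.

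The deposited values are background-subtracted intensities in arbitrary units, already placed by the authors on 1 shared distribution. A detection floor of 8.87 to 8.93 intensity units was set for each array from its negative values, and 14358 to 14385 of 25697 probes per array (55.9% to 56.0%) lay above it. Testing was limited to probes with values over this floor on 2 or more arrays, and a gene is represented by its tested probe with the highest mean. Tests used limma on log2 signals after normexp correction with an offset of 16, a constant that shrinks the changes of dim probes. The threshold for a change was 0.05 after Benjamini-Hochberg adjustment across the 15944 probes tested. Intensities of different probes do not measure amounts of transcript on 1 scale and are compared only between arrays. Where intensities of several genes are summed below, the sum follows its brightest probes and does not describe each gene.

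Many defining macrophage genes were close to background in these cultures. Of the 32 members with a probe, 27 were tested, and 5 (Fcgr2b, Cd163, Itgam, Ptprc and Cybb) lay above the floor on no array by any probe. These 5 encode the inhibitory Fc receptor, the haemoglobin scavenger receptor, the integrin chain CD11b, the leukocyte phosphatase CD45 and the oxidase subunit gp91phox. On its brightest probe Ptprc read -0.245 and 1.14 intensity units in untreated cells, 4.24, 0.342 and 0.255 in AdLacZ cells and 1.52, -0.114 and -5.94 in AdCre cells. In untreated cells, by contrast, 23 of the 27 tested members exceeded the floor on every array. On all AdLacZ arrays 15 did, and on all AdCre arrays 14 did. No tested member was below the floor on every untreated array, while 3 were on every AdLacZ array and 3 on every AdCre array. Fcer1g, Fcgr1, Lcp1 and Spi1 would not have been tested on the strength of the 6 virus-treated arrays alone, so the counts over tested members lean toward genes that are high in untreated cells.

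**Figure D1:**
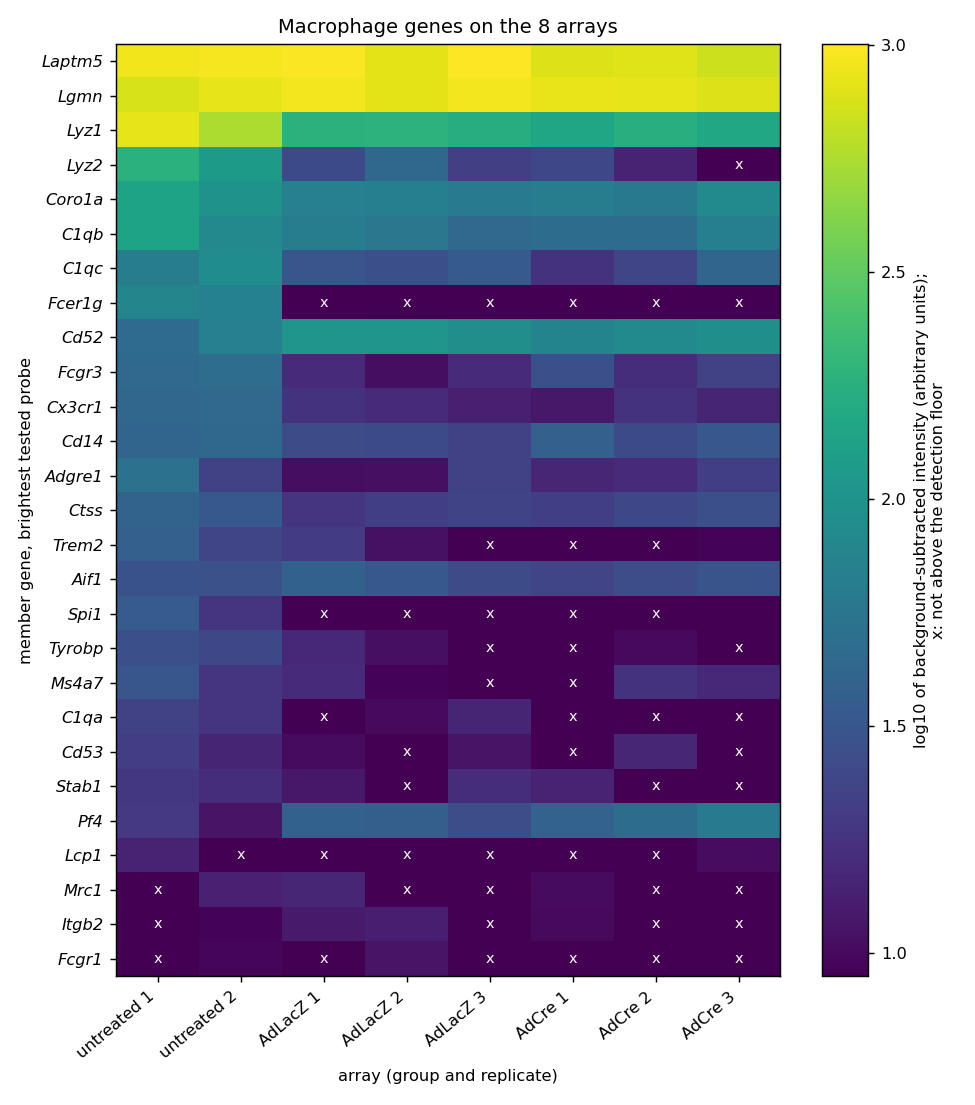
Background-subtracted intensity (log10 colour scale, arbitrary units) of the 27 tested members on the 8 arrays, 1 tested probe per gene, with x marking values not above the detection floor. Fcer1g is above the floor on both untreated arrays and on none of the 6 virus-treated arrays, while Laptm5 and Lgmn are above it everywhere.

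The lysozymes carried the largest changes together with Fcer1g. Lyz1 and Lyz2 are neighbouring, duplicated genes on chromosome 10 that encode the mouse P and M lysozymes, enzymes that cut bacterial cell walls, and Lyz2 is the one used as a marker of macrophages. The 250 bases before each RefSeq start site (build GRCm38.p6, minus strand, chr10:117292869-117293118 and chr10:117282273-117282522) are shown because the genes changed together and share much of this sequence. Capitals mark bases that differ or have no partner in the alignment.
Lyz1: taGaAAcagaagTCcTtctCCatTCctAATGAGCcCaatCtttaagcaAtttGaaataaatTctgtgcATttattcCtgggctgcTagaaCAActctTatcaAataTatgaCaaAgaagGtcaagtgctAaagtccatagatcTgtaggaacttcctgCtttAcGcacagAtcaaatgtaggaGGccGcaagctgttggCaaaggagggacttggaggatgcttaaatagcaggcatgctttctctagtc
Lyz2: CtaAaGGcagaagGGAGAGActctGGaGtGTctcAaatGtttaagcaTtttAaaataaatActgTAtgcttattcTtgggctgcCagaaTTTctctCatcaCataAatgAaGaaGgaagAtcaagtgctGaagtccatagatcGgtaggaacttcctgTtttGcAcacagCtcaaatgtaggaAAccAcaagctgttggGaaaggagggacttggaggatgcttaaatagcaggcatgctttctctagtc
Of 240 aligned bases 205 (85.4%) were identical, with 20 further bases in gaps, and the 50 bases next to the start site were the same in the pair.

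Lyz1 read 847 and 557 intensity units in untreated cells, 184, 188 and 169 in AdLacZ cells and 145, 175 and 149 in AdCre cells. The groups with virus did not overlap with untreated cells, and the untreated arrays differed from each other more than the virus-treated arrays did. On the log2 scale the mean signal was 9.49 ± 0.41 (SD, n = 2) in untreated cells, 7.71 ± 0.07 (SD, n = 3) in AdLacZ cells and 7.54 ± 0.13 (SD, n = 3) in AdCre cells. Lyz1 thus fell by 1.77 ± 0.16 (SE, 3.41-fold, adjusted p = 4.27e-04) with AdLacZ and by 1.95 ± 0.16 (3.86-fold, adjusted p = 1.54e-04) with AdCre. Both values rest on the same untreated arrays, as all pairs of this kind below do. The other 2 Lyz1 probes were above the floor on no array.

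For Lyz2, the intensities were 181 and 118 in untreated cells, 25.8, 43.4 and 21.6 in AdLacZ cells and 24.7, 14.2 and 7.12 in AdCre cells. Again no virus-treated array reached an untreated one, and the lowest AdCre array was below the floor. Lyz2 fell by 1.58 ± 0.21 (2.98-fold, adjusted p = 0.00237) with AdLacZ and by 1.99 ± 0.21 (3.97-fold, adjusted p = 5.85e-04) with AdCre. A second Lyz2 probe gave falls of 1.01 ± 0.21 (adjusted p = 0.023) and 1.12 ± 0.21 (adjusted p = 0.00703), and a further one was above the floor on no array. Because the gene pair is so similar, RNA of one lysozyme may bind a probe of the other, which was not tested.

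Fcer1g encodes the gamma chain that Fc receptors and other immune receptors need for signalling and for reaching the cell surface. It read 77.01 and 70.69 intensity units in untreated cells. In AdLacZ cells it read -3.08, -3.59 and 0.540, and in AdCre cells 2.19, -5.69 and 0.980, none of them above the floor. Measured against the floor, Fcer1g was at least 2.68-fold lower with either virus (adjusted p = 1.99e-04 with AdLacZ and 1.47e-04 with AdCre). This limit, like those against the floor below, is on the log2 scale with offset 16, which shrinks the changes of dim probes. Among tested members Fcer1g alone exceeded the floor on none of the 6 virus-treated arrays. The filter of 2 or more arrays then required it on both untreated arrays, so this pattern is no separate support.

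Of the Fc receptors that use this chain, Fcgr3, a low-affinity activating receptor for immunoglobulin G, was measured above the floor on all 8 arrays. Its intensities were 45.1 and 47.8 in untreated cells, 15.96, 10.49 and 15.52 in AdLacZ cells and 27.9, 16.3 and 22.7 in AdCre cells. Every virus-treated array lay below both untreated arrays, and all AdCre values lay above all AdLacZ values. Fcgr3 fell by 0.80 ± 0.12 (1.75-fold, adjusted p = 0.00458) with AdLacZ and by 0.56 ± 0.12 (1.47-fold, adjusted p = 0.0142) with AdCre. The high-affinity receptor gene Fcgr1 exceeded the floor on 1 untreated and 1 AdLacZ array and did not pass (log2 0.08 and -0.05, adjusted p = 0.84 and 0.899).

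Tyrobp encodes DAP12, the adaptor that partners Trem2 and other receptors of myeloid cells. It read 28.2 and 24.6 intensity units in untreated cells, 15.4, 10.8 and 6.34 in AdLacZ cells and 7.42, 10.1 and 4.77 in AdCre cells, with no overlap between untreated and virus-treated arrays. Tyrobp fell by 0.60 ± 0.12 with AdCre (1.51-fold, adjusted p = 0.0105), and its change of -0.48 ± 0.12 with AdLacZ did not pass (adjusted p = 0.0525). Trem2, a lipid-sensing receptor that signals through DAP12, read 37.8 and 24.0 in untreated cells, 20.2, 11.0 and -3.80 in AdLacZ cells and 4.24, 4.15 and 9.29 in AdCre cells. The Trem2 groups did not overlap either, but the changes of -0.68 ± 0.23 and -0.76 ± 0.23 did not pass (adjusted p = 0.116 and 0.0513).

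Complement C1q is built from the 3 chains C1qa, C1qb and C1qc, whose genes lie side by side on chromosome 4, and it marks immune complexes and dying cells for uptake. C1qc read 65.7 and 87.9 intensity units in untreated cells, 30.6, 28.3 and 33.7 in AdLacZ cells and 17.9, 23.9 and 41.5 in AdCre cells. It fell by 0.81 ± 0.17 (1.75-fold, adjusted p = 0.0204) with AdLacZ and by 0.90 ± 0.17 (1.87-fold, adjusted p = 0.00615) with AdCre. The AdCre arrays spread over more than the AdLacZ arrays, yet no virus-treated array reached an untreated one. C1qb read 138 and 83.0 in untreated cells, 65.8, 57.5 and 44.3 in AdLacZ cells and 47.6, 47.4 and 68.1 in AdCre cells. It fell by 0.72 ± 0.18 with AdCre (adjusted p = 0.0266), and the -0.69 ± 0.18 with AdLacZ did not pass (adjusted p = 0.0561). C1qa was dim, at 22.3 and 18.5 in untreated cells, 5.67, 9.92 and 14.5 in AdLacZ cells and 7.95, 8.79 and 6.57 in AdCre cells. It was above the floor on no AdCre array and at least 1.30-fold lower there (adjusted p = 0.04), and its change of -0.34 ± 0.12 with AdLacZ did not pass (adjusted p = 0.129). All 3 chains thus lay below untreated cells on each virus-treated array, with 1 chain passing for AdLacZ and 3 for AdCre.

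The receptor genes had mixed calls. Cx3cr1, the receptor for the membrane-bound chemokine fractalkine and a marker of yolk-sac-derived macrophages, had nearly equal values on the untreated arrays (log2 SD 0.03, n = 2). Its intensities were 42.5 and 44.7 in untreated cells, 17.8, 15.5 and 13.4 in AdLacZ cells and 12.1, 17.9 and 14.4 in AdCre cells. Cx3cr1 fell by 0.70 ± 0.11 (1.62-fold, adjusted p = 0.00472) with AdLacZ and by 0.72 ± 0.11 (1.65-fold, adjusted p = 0.00233) with AdCre, and the virus arms overlapped each other. Cd14, a co-receptor for bacterial lipopolysaccharide, read 41.8 and 44.1 in untreated cells, 26.5, 25.6 and 22.8 in AdLacZ cells and 37.7, 25.5 and 32.3 in AdCre cells. All virus-treated values of Cd14 were below the untreated ones, but neither -0.41 ± 0.11 nor -0.24 ± 0.11 passed (adjusted p = 0.0663 and 0.189). Among the scavenger receptors, Stab1 had values of 7.75 to 19.0 over the 8 arrays and Mrc1, the mannose receptor, exceeded the floor on 1 array of each group. Neither passed in any comparison.

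Spi1 encodes PU.1, the transcription factor that myeloid cells need. It read 34.9 and 18.4 intensity units in untreated cells, 8.84, 0.214 and 6.53 in AdLacZ cells and 5.55, 3.67 and 9.03 in AdCre cells. Only 1 of the 6 virus-treated arrays, AdCre replicate 3, was above the floor. Spi1 was at least 1.45-fold lower with AdLacZ (adjusted p = 0.0308) and fell by 0.64 ± 0.15 with AdCre (1.56-fold, adjusted p = 0.0206). Untreated replicate 1 read higher than replicate 2 for Spi1, as it did for 17 of the 27 tested members (63.0%, against 5387 of all 10771 tested genes).

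Adhesion and cytoskeletal genes of leukocytes changed in part. Coro1a, an actin-binding protein of blood cells, read 138 and 98.4 in untreated cells, 69.2, 68.3 and 63.4 in AdLacZ cells and 66.3, 59.9 and 83.3 in AdCre cells. It fell by 0.60 ± 0.14 (1.52-fold, adjusted p = 0.0364) with AdLacZ and by 0.56 ± 0.14 (1.48-fold, adjusted p = 0.0248) with AdCre. On 2 dimmer tested probes the Coro1a change ran from -0.47 to -0.41 and passed in 1 of the 4 tests, and on a further probe no array was above the floor. Adgre1, which encodes the macrophage antigen F4/80, read 51.5 and 22.2 in untreated cells, 10.5, 10.9 and 22.6 in AdLacZ cells and 14.8, 15.8 and 21.2 in AdCre cells. For Adgre1 the untreated arrays differed widely, AdLacZ replicate 3 overlapped with them, and -0.56 ± 0.19 and -0.47 ± 0.19 did not pass (adjusted p = 0.113 and 0.123). Changes of -0.35 ± 0.21 and -0.49 ± 0.21 on a dimmer tested Adgre1 probe also did not pass, and a further probe was above the floor on no array. The actin-bundling gene Lcp1, the tetraspanin gene Cd53, the membrane protein gene Ms4a7 and the integrin chain gene Itgb2 did not pass either, with changes of -0.44 to 0.17. Aif1, which encodes the calcium-binding protein IBA1, stayed between 23.7 and 38.7 on all arrays, with changes of 0.08 ± 0.12 and -0.04 ± 0.12.

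Pf4 and Cd52 moved the other way. Pf4 encodes a chemokine that is stored in platelets and also made by macrophages. It read 19.4 and 11.4 intensity units in untreated cells, 38.4, 37.0 and 27.1 in AdLacZ cells and 39.3, 47.2 and 61.9 in AdCre cells, so that the 3 groups did not overlap at all. Pf4 rose by 0.81 ± 0.15 with AdCre (1.75-fold, adjusted p = 0.00606), and the change of 0.50 ± 0.15 with AdLacZ did not pass (adjusted p = 0.0791). Of 5 other megakaryocyte and platelet genes tested, 0 passed with either virus by limma, with a median change of 0.09 with AdLacZ and 0.13 with AdCre, and Ppbp, another platelet chemokine, had changes of -0.00453 ± 0.15 and -0.32 ± 0.15. The summed intensity of the 6 genes of that list with a probe was 152 to 165 in untreated cells, 164 to 188 in AdLacZ cells and 126 to 159 in AdCre cells, and none of the 6 was below the floor on every array. Cd52, a small glycoprotein on the surface of leukocytes, read 46.8 and 69.1 in untreated cells, 104, 106 and 92.7 in AdLacZ cells and 74.5, 83.9 and 93.9 in AdCre cells. It rose by 0.59 ± 0.13 with AdLacZ (adjusted p = 0.0322), and 0.38 ± 0.13 with AdCre did not pass (adjusted p = 0.0845).

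None of the 3 lysosomal members passed with either virus. Laptm5, a lysosomal membrane protein of blood cells, read 904 and 946 intensity units in untreated cells, 972, 827 and 1007 in AdLacZ cells and 784, 805 and 701 in AdCre cells. Lgmn, the lysosomal protease legumain, which many cell types make, read 757 and 849, then 929, 827 and 918, then 868, 838 and 779 in the same order. The changes of Laptm5 were 0.01 ± 0.12 and -0.27 ± 0.12 (adjusted p = 0.974 and 0.169) and those of Lgmn 0.15 ± 0.11 and 0.04 ± 0.11 (adjusted p = 0.503 and 0.842). The 95% confidence intervals for AdLacZ, -0.25 to 0.28 for Laptm5 and -0.10 to 0.39 for Lgmn, were above the lysozyme changes. With AdCre the interval was -0.53 to -0.00453 for Laptm5, whose AdCre arrays all lay below both untreated arrays (unadjusted p = 0.0468), and -0.20 to 0.29 for Lgmn. Ctss, the protease cathepsin S, read 33.0 to 39.8 in untreated cells and 18.5 to 28.0 on the virus-treated arrays. Its groups did not overlap, but -0.38 ± 0.11 and -0.28 ± 0.11 did not pass (adjusted p = 0.0795 and 0.121).

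**Figure D2:**
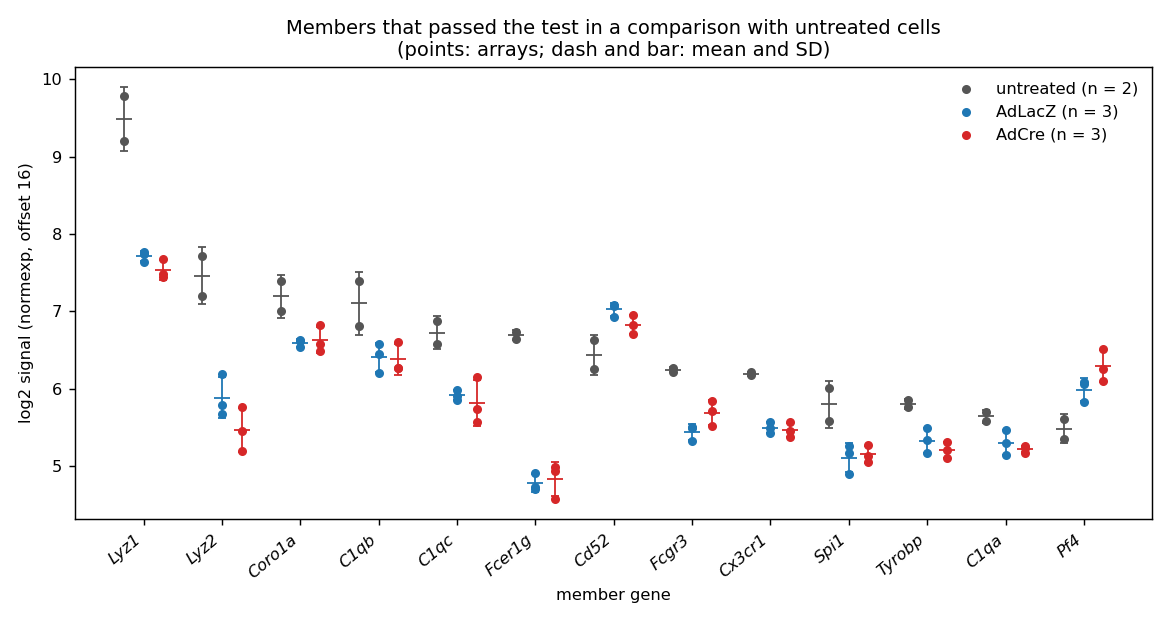
Log2 signal of the 13 members that passed the test in at least 1 comparison with untreated cells, with a point for each array and a dash and bar for the mean and SD of each group. The mean of Lyz1 goes from 9.49 in untreated cells to 7.71 with AdLacZ and 7.54 with AdCre, while Pf4 and Cd52 are higher with virus.

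In AdLacZ against untreated cells, 8 of the 27 tested members were lower and 1 was higher, where 2.58% of all tested genes were lower and 2.94% higher. The 8 were Fcer1g, Lyz1, Lyz2, C1qc, Fcgr3, Cx3cr1, Spi1 and Coro1a, and the 1 was Cd52. For 17 members all AdLacZ arrays lay below both untreated arrays (19.3% of all tested genes did so), and for 2, Cd52 and Pf4, all lay above (20.2%). The median change of the members was -0.41, beside -7.56e-04 for all tested genes. Among only the 23 members that would be tested on the virus-treated arrays alone, a setting added after the data were seen, 6 were lower and 1 was higher. Of all 15442 probes tested there, 839 passed in either direction. With no filter, so that all 32 members with a probe entered, 22 changes were negative and 10 positive, their median was -0.34, and 6 members passed as lower. Of all 16590 genes 49.8% had a negative change in that setting, and 486 of all 25697 probes passed in either direction.

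In AdCre against untreated cells, 11 of the 27 tested members were lower, where 6.06% of all tested genes were, and 1 was higher, where 7.40% were. To the 8 genes above, which were lower here too, this comparison added Tyrobp, C1qa and C1qb, and Pf4 took the place of Cd52. All AdCre arrays lay below the untreated ones for 18 members (19.6% of all tested genes) and above them for 2 (24.0%). The median change was -0.42, beside 0.02 for all tested genes. On the virus-treated arrays alone as the basis for testing, 10 members were lower and 1 was higher. Of all 15442 probes tested in this way, 2175 passed in either direction. With no filter 26 of 32 changes were negative, where 46.8% of all genes had a negative change. Then 10 members passed as lower and 1 as higher, where 1476 of all 25697 probes passed in either direction.

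**Figure D3:**
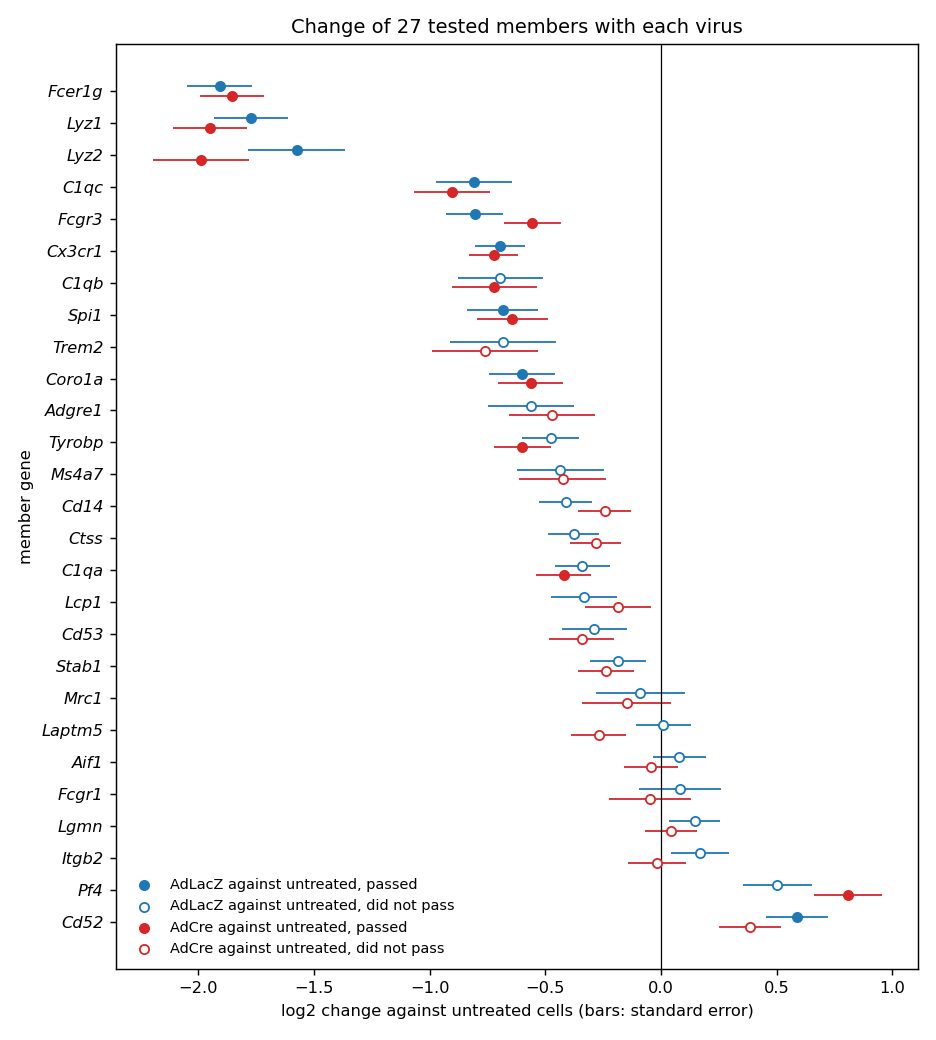
Log2 change of the 27 tested members with AdLacZ (blue) and AdCre (red), each against the same 2 untreated arrays, with standard errors as bars and filled symbols for changes that passed. Lyz1 and Lyz2 lie between -1.58 and -1.99, and Pf4 and Cd52 lie to the right of 0 with both viruses. The fitted symbols of Fcer1g, beside those of Lyz1 and Lyz2, stand for a change known on this offset scale only as at least 2.68-fold.

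These calls, like those over all probes, whose numbers moved more (see the closing section), leaned on untreated replicate 1. Without it 4 members passed with AdLacZ and 6 with AdCre, in a fit that leaves 1 untreated array and assumes that it varies like the other groups. Fcgr3, Coro1a and Spi1 were lost there in both comparisons, C1qc and Cd52 with AdLacZ, and Tyrobp, C1qa and C1qb with AdCre. Without AdLacZ replicate 2, 5 members passed with AdLacZ, with C1qc, Cd52, Coro1a and Spi1 lost. C1qc, Cd52 and Coro1a were lost without AdLacZ replicate 1, and Cd52, Coro1a and Spi1 without AdLacZ replicate 3. With AdCre, C1qb, Coro1a and Spi1 were lost without AdCre replicate 1 or 2, C1qa without any 1 of untreated replicate 1 or 2, AdLacZ replicate 2 or the AdCre arrays, and Fcgr3 without either untreated array. Without untreated replicate 2 or AdCre replicate 1, respectively, the AdLacZ calls of C1qc and Coro1a were lost. Fcer1g, Lyz1, Lyz2 and Cx3cr1 passed with AdLacZ whichever array was left out, and so did these 4, C1qc and Pf4 with AdCre. Sizes moved by over 1.5 times with another background correction for Fcer1g, Fcgr3, Cx3cr1, Spi1, C1qc, Tyrobp, C1qa and Pf4, and for Lyz2 with AdCre, in the comparisons where they were called. With an offset of 50 and without correction, respectively, the changes with AdLacZ were -1.16 and -3.05 for Fcer1g, -0.50 and -1.76 for Fcgr3, -0.44 and -1.49 for Cx3cr1, -0.57 and -1.30 for C1qc, and -0.39 and -1.51 for Spi1. Those with AdCre were -1.42 and -3.32 for Lyz2, 0.51 and 1.71 for Pf4, -0.34 and -1.51 for Tyrobp, and -0.24 and -1.20 for C1qa. Lyz1, which is bright, kept -1.62 and -1.93 with AdLacZ.

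AdCre and AdLacZ cells were compared to ask whether Cre in floxed cells changed these genes beyond the virus. In limma 0 of the 27 tested members passed in either direction, where 2.79% of all tested genes were lower and 1.82% higher. Fcer1g, Fcgr1, Lcp1 and Spi1, tested only because of untreated arrays, exceeded the floor on at most 1 of the 6 virus-treated arrays. A difference between the arms could hardly be seen for them. Among the 23 members tested on the virus-treated arrays alone, 0 passed too, where 893 of 15442 probes passed in either direction. At an unadjusted p under 0.05 there were 2 lower members, Lyz2 (-0.41 ± 0.19) and Laptm5 (-0.28 ± 0.11), and 2 higher ones, Fcgr3 (0.25 ± 0.11) and Pf4 (0.30 ± 0.13), with adjusted p values of 0.228, 0.161, 0.219 and 0.208. The arms did not overlap for Laptm5, lower with AdCre (1 member, beside 12.6% of all tested genes), or for Fcgr3 and Pf4, higher with AdCre (2 members, beside 16.3%). Changes of the members ran from -0.41 to 0.30 with a median of -0.06, beside 0.02 for all tested genes, and the 95% confidence intervals of single members reached from -0.83 to 0.60. The median margin of such an interval on either side of its estimate was 0.28, before any adjustment for the number of probes.

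**Figure D4:**
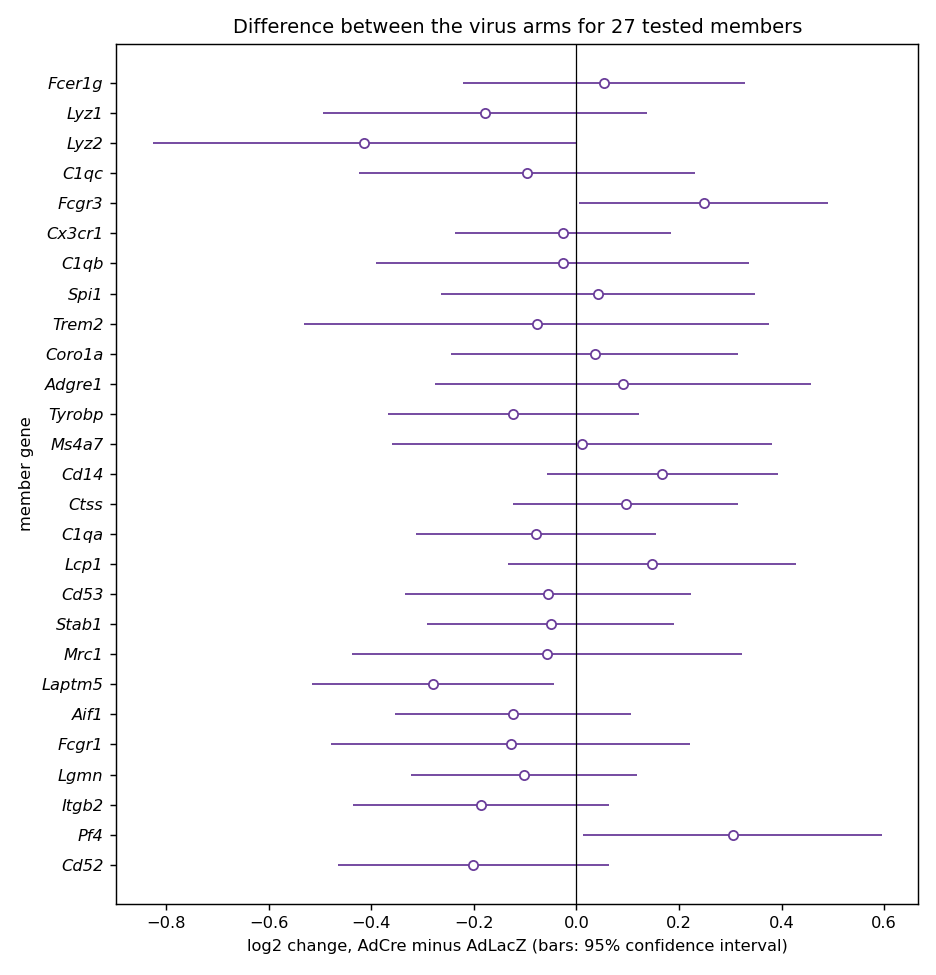
Log2 difference between AdCre and AdLacZ cells for the 27 tested members, in the order of their change with AdLacZ, with 95% confidence intervals as bars. All symbols are open since none passed, and the differences lie between -0.41 and 0.30.

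Upstream sequence was searched for 1 exact form of the PU.1 site, so sites with other letters were not counted. The letters GAGGAA, on either strand, occurred in the 250 bases before the start of 16 of 33 RefSeq promoters of members (48.5%), which belong to 15 of 27 genes with a promoter, and in 23.3% of all 32851 promoters of that length. The 2 Fcgr3 promoters among the 16 overlap and hold the same site, which was counted in each. The longer form GAGGAAGT, which contains the shorter, was found before C1qc and Pf4 only among the members (6.06% of their promoters, 2.44% of all). An interferon element, GAAA followed by any 2 bases and GAAA again, was found before Aif1, Ctss and Cybb (9.09%, against 2.98% of all). Tyrobp, C1qa, Csf1r, Cd14, Adgre1, Itgb2, Cd52 and Spi1 had no entry. A match is a description of letters, and base composition was not matched between these promoters and all others. Shown are the 4 promoters with GAGGAA (or TTCCTC, its reverse) in capitals that belong to members called in a comparison with untreated cells: C1qb (chr4:136886201-136886450, minus strand), C1qc (chr4:136892915-136893164, minus strand), Fcgr3 (chr1:171059395-171059644, minus strand, 1 of 2 start sites) and Pf4 (chr5:90772185-90772434, plus strand), all in build GRCm38.p6.
C1qb: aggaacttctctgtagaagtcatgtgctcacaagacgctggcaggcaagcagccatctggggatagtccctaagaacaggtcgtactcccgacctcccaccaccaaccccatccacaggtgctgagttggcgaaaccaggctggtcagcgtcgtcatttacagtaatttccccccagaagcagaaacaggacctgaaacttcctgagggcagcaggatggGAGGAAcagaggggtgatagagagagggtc
C1qc: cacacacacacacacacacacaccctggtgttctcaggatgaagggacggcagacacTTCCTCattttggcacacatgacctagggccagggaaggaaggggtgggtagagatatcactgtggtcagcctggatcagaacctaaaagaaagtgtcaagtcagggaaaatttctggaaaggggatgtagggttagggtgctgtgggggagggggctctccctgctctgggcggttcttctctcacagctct
Fcgr3: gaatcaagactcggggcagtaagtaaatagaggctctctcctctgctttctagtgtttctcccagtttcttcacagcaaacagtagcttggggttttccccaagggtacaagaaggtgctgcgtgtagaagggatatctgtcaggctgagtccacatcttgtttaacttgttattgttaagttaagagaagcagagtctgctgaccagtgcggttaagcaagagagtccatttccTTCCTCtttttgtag
Pf4: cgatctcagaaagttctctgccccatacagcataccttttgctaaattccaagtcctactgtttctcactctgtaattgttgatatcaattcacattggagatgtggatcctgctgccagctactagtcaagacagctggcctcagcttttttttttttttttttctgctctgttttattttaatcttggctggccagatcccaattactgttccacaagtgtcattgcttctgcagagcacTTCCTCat
The letters ended 24 bases before the start of C1qb, 187 before that of C1qc, 9 before this start of Fcgr3 and 2 before that of Pf4. Of these 4 genes, the first 3 were lower with AdCre and Pf4 was higher. A link between the letters and the changes was not tested. No GAGGAA on either strand lay before Fcer1g, Lyz1, Lyz2, Cx3cr1 or Coro1a, the other called members with a promoter entry. Sites of another form there were not counted.

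Lists of further genes of macrophage biology held few changes. Of 10 tested regulators of macrophages, 0 passed with AdLacZ, and Irf5, an interferon regulatory factor, rose with AdCre (0.56 ± 0.17, adjusted p = 0.0491). Csf1, the ligand of Csf1r, had changes of 0.13 ± 0.11 and 0.00731 ± 0.11. Of 8 kinases and adaptors below Fc receptors, 0 passed with AdLacZ, and Vav1 was at least 1.27-fold lower with AdCre (adjusted p = 0.0187). Neither of 2 tested partners of Cybb in the phagocyte oxidase passed. Of 36 further macrophage genes 18 were tested and 16 were above the floor on no array, Msr1, Siglec1 and Vsig4 among them. Hmox1, which breaks down haem (-1.33 ± 0.30 with AdLacZ, -1.43 ± 0.30 with AdCre), and the lipid carrier gene Apoe (-0.61 ± 0.15 and -0.76 ± 0.15) fell with both viruses. Tmem119, a microglial marker that bone-forming cells also express, rose (0.53 ± 0.12 and 0.65 ± 0.12), and Cd86 was at least 1.13-fold higher with AdCre.

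Of 20 tested lysosomal genes found in many cell types, 1 fell with each virus, Gpnmb (-0.76 ± 0.11 and -0.96 ± 0.11), a glycoprotein of phagocytes and pigment cells. Of 6 tested complement genes other than C1q, the component gene C2 rose (0.65 ± 0.12 and 0.80 ± 0.12), Cd59a, an inhibitor of complement, fell (-0.68 ± 0.11 and -0.77 ± 0.11), and Serping1 rose with AdCre (0.48 ± 0.13). Of 4 tested leukocyte genes, Evi2a was not above the floor with virus and at least 1.37-fold lower with either virus (adjusted p = 0.00816 and 0.0187). Of 10 tested products and sensors of activated macrophages, Arg1, arginase (1.05 ± 0.12 and 0.94 ± 0.12), and Tlr2, a pattern receptor (0.55 ± 0.14 and 0.59 ± 0.14), rose with both viruses and 0 fell. Il1rn, the interleukin 1 receptor antagonist, was the 1 gene of these 8 pathway lists to pass between AdCre and AdLacZ cells (0.58 ± 0.13, adjusted p = 0.0331). The background shares given above for each comparison and direction hold for these counts too.

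Interferon-induced genes moved with the virus across the same arrays as the macrophage genes. Of 10 tested interferon-induced genes 8 rose and 0 fell with each virus, with medians of 2.62 and 2.23. The summed intensity of the 12 genes of that list with a probe was 405 in untreated replicate 1, 1753 in untreated replicate 2, 5987 to 7920 in AdLacZ cells and 4585 to 6419 in AdCre cells, and Ifit1 and Mx1 were above the floor on no array. Over all 27 tested members the summed intensity was 3638 and 3286 in untreated cells, 2381 to 2661 in AdLacZ cells and 2204 to 2303 in AdCre cells. Without Laptm5 and Lgmn, the bright members that did not pass, a choice made after their values were seen, the sum over 25 members was 1978 and 1491 in untreated cells, 653 to 760 in AdLacZ cells and 632 to 724 in AdCre cells. Lyz1 alone gave 847 and 557 units of the untreated sums, and Laptm5 and Lgmn together gave 1661 and 1795 of those over 27 members. Untreated replicate 2 had the higher interferon sum and the lower sum over members of the untreated pair. The part of the interferon response in the members' changes was not tested.

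**Figure D5:**
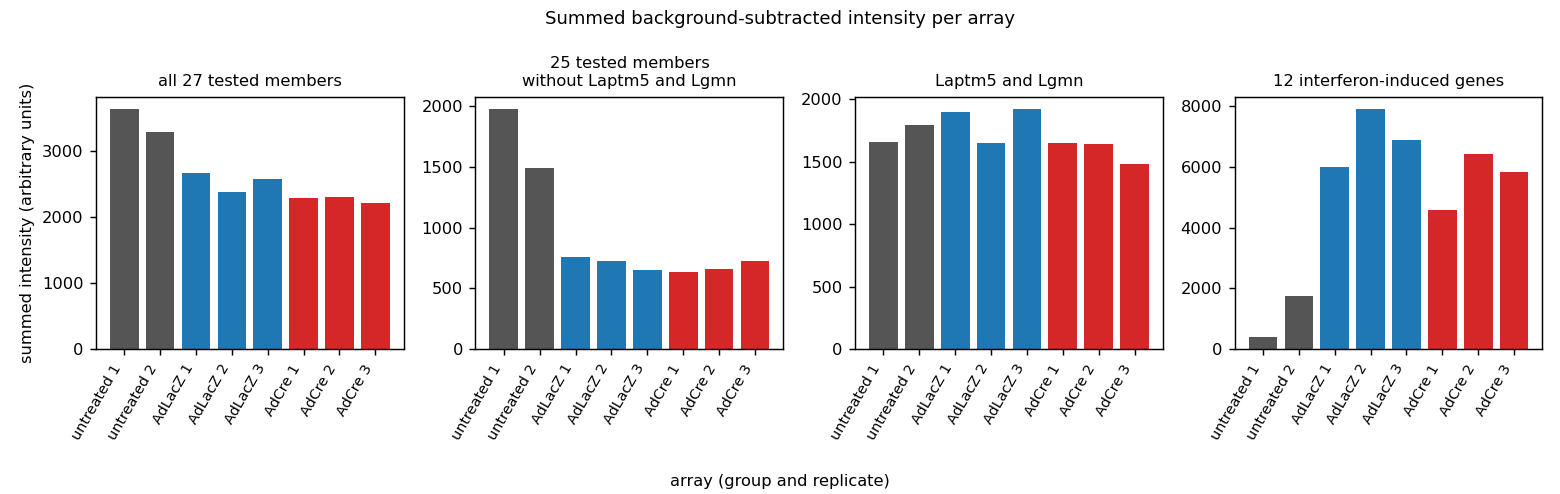
Summed background-subtracted intensity on each array (bars from 0, arbitrary units) for all 27 tested members, for 25 of them without Laptm5 and Lgmn, for Laptm5 and Lgmn, and for 12 interferon-induced genes, with untreated arrays grey, AdLacZ blue and AdCre red. The sum over all 27 members is 3286 or more in untreated cells and at most 2661 with virus, the sum over 25, chosen after their values were seen, is 1491 or more and at most 760, and the interferon sum is lowest in untreated replicate 1, at 405.

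Lists of other cell types were read on the same arrays. None of 5 B cell genes was above the floor on any array, and 0 passed with either virus among 3 tested T and NK cell genes, 3 neutrophil genes, 2 mast cell genes and 3 dendritic cell and MHC class II genes. Cd4, Cd8a, S100a9, Mpo, Mcpt4, Ms4a2, Flt3, Clec9a and Cd74 were above the floor on no array. The summed intensity of 9 neutrophil genes was 34.3 to 42.4 in untreated cells, 29.7 to 38.7 in AdLacZ cells and 14.4 to 34.9 in AdCre cells, and that of 9 T and NK cell genes was 157 to 198, 234 to 275 and 178 to 253 in the same order. Of 3 tested osteoclast genes Ctsk, cathepsin K, fell (-0.62 ± 0.13 and -0.54 ± 0.13). Of 6 erythroid genes 1 fell with AdLacZ (Hbb-bh1, -0.89 ± 0.16) and 4 with AdCre, their summed intensity being 6117 to 7241 in untreated cells, 4193 to 4744 in AdLacZ cells and 1341 to 1902 in AdCre cells. In AdCre against AdLacZ cells 3 of these erythroid genes fell. The 0 of 27 macrophage genes that fell there is near the 2.79% of all tested genes. In that comparison 1 endothelial, 1 limb mesenchyme and 1 fibroblast matrix gene fell too, and 2 fibroblast matrix genes rose. Of 7 endothelial genes Tek fell with each virus (-0.68 ± 0.17 and -0.98 ± 0.17), and of 11 limb mesenchyme genes, all above the floor in each group, Twist1 fell with each (-0.66 ± 0.13 and -0.53 ± 0.13) and Hoxd13 with AdCre. Of 7 fibroblast matrix genes 4 fell with AdLacZ and 2 with AdCre, led by Dcn (-1.79 ± 0.14 and -1.68 ± 0.14). The part of other cell types in the members' changes was not tested.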

How the data were processed

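Total RNA of 8 samples had been hybridised to Illumina bead arrays, and BeadStudio 2.1 is named in the submitters' processing notes. The authors' deposited table gives an intensity per probe and array, background-subtracted and on 1 shared distribution, with the method not given in the sources used here. The 32 columns of another table are named by chip position, which no label gives, and were left out. Of 25697 probes 23978 had 1 gene symbol, 1719 had none, and 23971 were matched to RefSeq GRCm38.p6, which gave names and promoters only.

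Intensities were corrected with normexp (offset 16) in limma 3.58.1 (R 4.3.3), taken to log2, and fitted with the 3 groups over all 8 arrays (5 residual and 5.64 prior degrees of freedom). Tests were 2-sided. The SE of log2 changes had a median of 0.134 against untreated cells and 0.119 between virus arms, limited by the number of arrays. The floor is the one-sided 95% point of a normal distribution fitted to negative values. A group with all arrays below it gives a lower limit against the floor, taken on the log2 scale with the offset. The code was tested on simulated data.

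Members, lists and tests were chosen with earlier results of these data known. Named were the members, with values per array for those past the test and for defining macrophage genes, and up to 4 genes of each list past the test. Csf1, Ppbp and genes below the floor were named outside this rule, after their values were seen. Values per array of Trem2, Cd14, Laptm5 and Lgmn, which passed in no comparison, were also given outside it. Same-numbered arrays were checked for pairing and showed no sign of it, which does not exclude it. Alternatives covered background correction, normalization, filters, variance model, array weights, replicate block, probe averaging, samples in the fit and leaving out each array. Figures used matplotlib 3.10.9 in Python 3.11.15.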

Additional observations from a re-analysis of the deposited data

How the results depend on the processing

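The number of members called kept within 1.5 times the main count in all 11 other settings that did not leave out an array: 6 to 12 with AdLacZ (main 9), 11 to 13 with AdCre (main 12) and 0 throughout between AdCre and AdLacZ. Quantile normalization, 1 of the 11, could hardly change the counts, because the deposited values already lay on 1 shared distribution. Dependence on normalization was therefore not tested. Leaving out 1 array at a time gave 4 to 10, 6 to 13 and 0 members. With the replicate number as a block, 7, 11 and 0 members passed. The deviations of same-numbered arrays from their group means correlated at only -0.14 to 0.02. That gave no sign of pairing but, with 2 or 3 arrays per group, does not exclude it. Over all probes, calls moved more than those of the members: 834 with AdLacZ became 168 to 849 with 1 array left out and 442 to 1500 in other settings, 2183 with AdCre became 712 to 2008 and 1473 to 2901, and 802 between the virus arms became 192 to 774 and 406 to 1432. No called change of a member turned its sign in any setting. Of the 9 calls with AdLacZ 5 passed in every such setting in which the gene was tested, and of the 12 with AdCre 9 did. Fcer1g and Spi1 were tested in 10 of the 11, since the filter on virus-treated arrays alone leaves them out. Those lost in such settings were Cd52, Coro1a, Spi1 and C1qc with AdLacZ and C1qa, C1qb and Coro1a with AdCre; C1qa, near the floor, was lost in 6 of the 11. The cause was not tested. Depth of signal limits the sizes of dim genes, which moved with the background correction as given above.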
